A study of Drosophila melanogaster with 16 samples.

Results

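The genes CG17026, CG17027, CG17028, CG17029, CG9389 and CG9391 are inositol monophosphatase-like genes of Drosophila melanogaster. They are 6 of the 17753 genes listed for every library and were found by matching gene identifiers to these symbols. CG17029 heads the set because earlier results of these data listed it at 0 in both mutants, and CG17027 had been picked for its difference between the mutants. The others joined them by family, and 4 members lie inside the gene brm. Differences of the members between genotypes are therefore given as values without a test. Polyadenylated RNA of whole embryos was sequenced in 16 libraries. Wild-type OregonR, a standard laboratory strain, gave 3 libraries from embryos aged 2 to 4 h (early) and 5 from embryos aged 14 to 17 h (late). At the later age there were also embryos of the Lola-I mutant ORC4 (n = 4), and of the transheterozygote ORE50/ORC4 (n = 4), which carries a different Lola-I mutant allele on each homologue. Lola-I is a zinc-finger transcription factor made as one of the isoforms of the gene lola, and the labels give ORC4 without its zygosity.

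Inositol monophosphatase removes the last phosphate from inositol monophosphates and so returns free myo-inositol to the cell. It closes the cycle that begins when phospholipase C splits a membrane phosphoinositide into diacylglycerol and inositol trisphosphate, and it also completes new synthesis of inositol from glucose 6-phosphate. The enzyme needs magnesium and is inhibited by lithium. RefSeq's gene table carries the synonym IMP for 5 of the 6 members, all but CG17026. What each fly copy does in the embryo is not described here, because only their family is taken as known.

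All 6 genes lie on chromosome 3L (BDGP6 assembly, dm6 coordinates, 1-based). CG17026 (FBgn0036550) runs from 15975368 to 15976428, CG17029 (FBgn0036551) from 15976870 to 15978435, CG17028 (FBgn0036552) from 15978524 to 15980004 and CG17027 (FBgn0036553) from 15980100 to 15981888. These 4 are on the plus strand, head to tail, with gaps of 441, 88 and 95 bases between them. The gene brm (FBgn0000212), which encodes the ATPase of the Brahma chromatin-remodelling complex, is on the minus strand from 15970082 to 15982869 and contains all 4. Each nested member sits whole within a single brm intron of 6873 bases (15975250 to 15982122), and 0 bases of their exons fall in any annotated brm exon. Their spans fill 46.1% of the 12788 bases of brm. The other pair lies elsewhere on the minus strand, CG9391 (FBgn0037063) from 21266680 to 21268335 and CG9389 (FBgn0037064) from 21268392 to 21270580, 56 bases apart. CG9391 overlaps no annotated gene. CG9389 overlaps the antisense gene asRNA:CR45162 (FBgn0266655, 21268601 to 21269142).

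**Figure D1:**
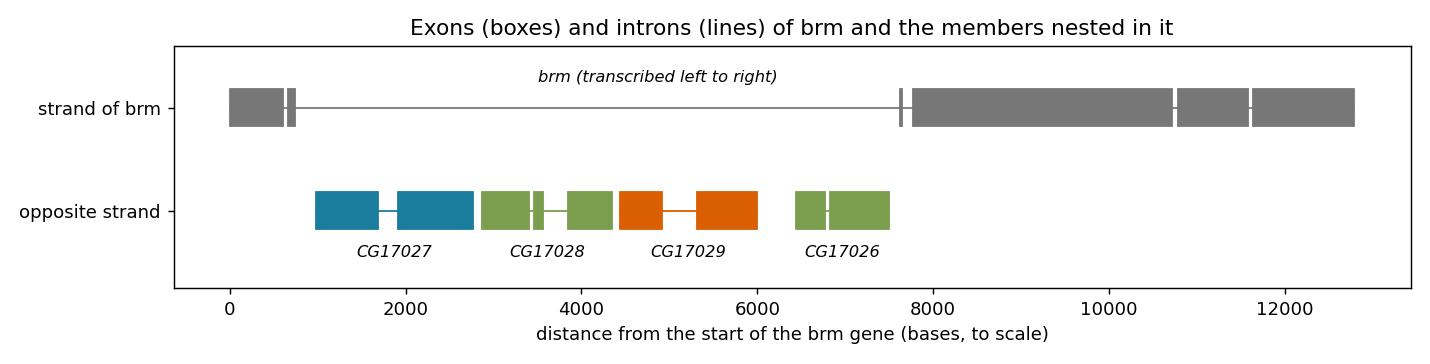
Map of brm and its nested members, with distance in bases from the start of brm on the horizontal axis and strand on the vertical axis; boxes are exons and lines are introns, to scale. The 4 nested members lie on the strand opposite to brm, inside a single intron of 6873 bases.

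The listed length of each of these genes equals its whole genomic span, introns included, as it does for 99.3% of the 17625 genes matched to the annotation. A read from inside CG17029 therefore also lies inside brm, and whether strand was used to separate them is not given in the sources used here. The estimated counts carry the trace of a division between them. The count of brm alone was whole (within 0.005) in 7 of 16 libraries, whereas the sum of brm and its nested members was whole in 16 of 16. For CG9389 the count was whole in 11 libraries, and its sum with asRNA:CR45162 in all 16. A listed 0 for a nested gene thus means that no read was credited to it, and does not show that its span was without reads. Among protein-coding genes lying within exactly 1 other gene and overlapping nothing else, 642 of 1380 (46.5%) were listed at 0 in all 16 libraries. Among the 7376 that overlap no gene the share was 2.35%. Nested genes were at 0 in 50.7% to 69.2% of cases per library where the host was under 1 TPM. The share was 64.2% to 75.5% where the host was at 1 to 10 TPM and 71.3% to 78.4% at 10 TPM or more. Whether nested genes also differ in expression from genes without overlap was not tested. TPM is the deposited abundance scaled per length and to a common total.

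Totals of estimated counts were 10202584 to 32521626 in late wild type, 27298377 to 28832013 in ORC4, 9025882 to 13226262 in ORE50/ORC4 and 14472809 to 31783930 in early wild type. Late wild-type replicates 1, 2 and 3 were deep and replicates 5 and 6 shallow, so depth and genotype coincide between the mutants and cannot be told apart there. The mutated gene lola had 36.7 to 47.0 TPM in late wild type, 39.2 to 61.3 in ORC4 and 26.1 to 36.8 in ORE50/ORC4, a value shared by all its isoforms. The labelled ages carried their markers. Early patterning genes (bcd, eve, ftz, run and hb) summed to 328 to 418 TPM at 2 to 4 h, to 24.1 to 55.9 TPM in late wild type, to 37.0 to 75.7 TPM in ORC4 and to 7.41 to 12.6 TPM in ORE50/ORC4. Muscle genes, 5 in number, summed to at most 39.7 TPM early and to 5969 to 7354 TPM late. The 5 neuronal genes summed to 243 to 273 TPM in late wild type, 194 to 204 in ORC4, 136 to 205 in ORE50/ORC4 and 109 to 111 early. The 5 hemocyte genes had 1719 to 1815, 1564 to 1804, 1179 to 1768 and 36.3 to 46.8 TPM in the same order. No label says that replicates came from separate collections, so p-values measure the spread between these libraries, which may be technical.

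CG17029 was the best measured of the nested members and was credited with reads in late wild type alone. Its estimated counts in replicates 1, 2, 3, 5 and 6 were 1356, 1045, 1669, 307 and 382, at 78.0, 60.0, 82.7, 48.5 and 61.3 TPM. All 8 mutant libraries and all 3 early wild-type libraries were listed at 0. The late wild-type mean was 66.1 ± 14.0 TPM (SD, n = 5), or 40.3 ± 8.80 CPM, the estimated count scaled to the library total. No fold is given, because the zeros belong to a gene whose reads can be credited to brm. In whole embryos, fewer cells of a type and less RNA per cell cannot be told apart.

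CG17027 showed another pattern. ORE50/ORC4 replicates 1 to 4 had 147, 47.1, 167 and 118 estimated counts, at 15.9, 5.22, 23.3 and 14.4 TPM. Every library of wild type, late or early, and of ORC4 was listed at 0. The ORE50/ORC4 mean was 14.7 ± 7.43 TPM (SD, n = 4), and replicate 2 was the lowest. CG17026 and CG17028 were listed at 0 in all 16 libraries, so nothing can be said of them beyond the floor of 3 counts (0.0922 to 0.332 CPM by library), which covers counting error only and not reads credited to brm. No library was credited with more than 1 of the nested members.

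**Figure D2:**
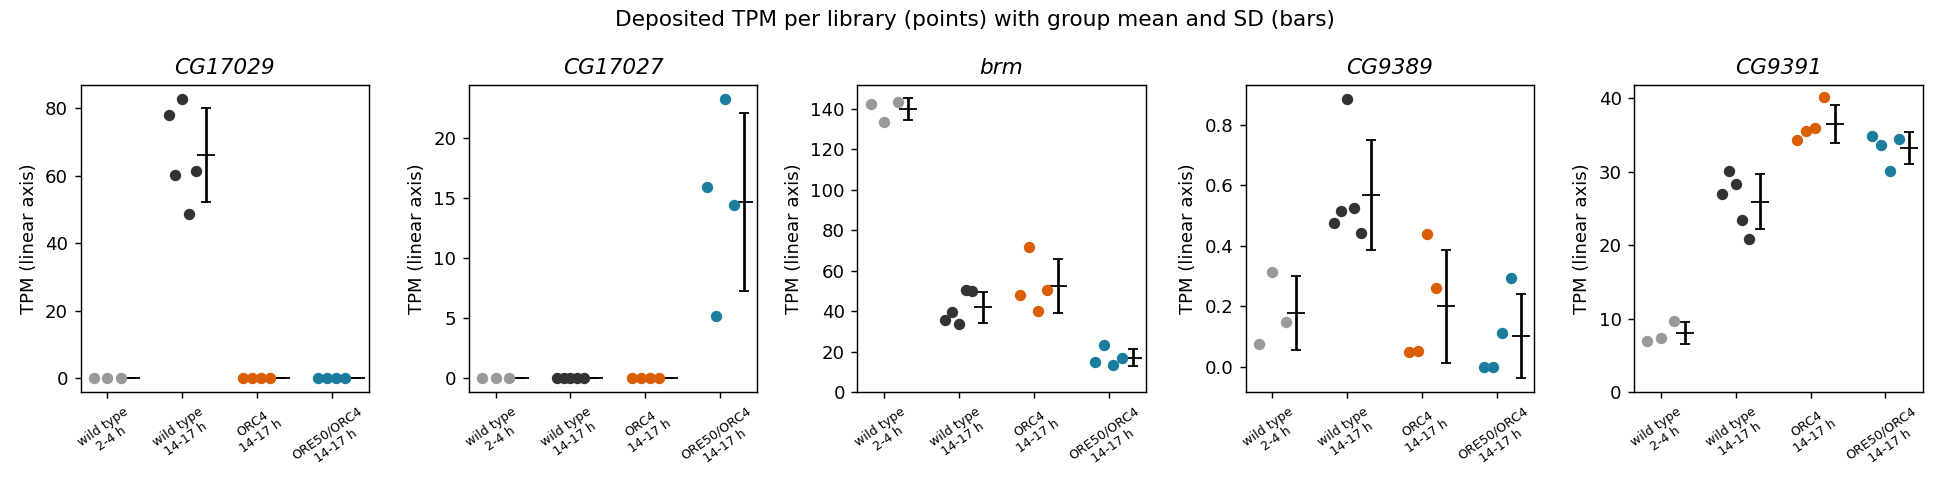
Deposited TPM (vertical axes, linear) of CG17029, CG17027, brm, CG9389 and CG9391 in each library (points) by group, with mean and SD as bars. CG17029 is above 0 only in wild type at 14 to 17 h and CG17027 only in ORE50/ORC4, while CG9391 lies above all 5 late wild-type libraries in both mutants.

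The level of brm itself is needed to read these zeros. Late wild-type replicates 1, 2, 3, 5 and 6 had 35.6, 39.7, 33.6, 50.2 and 49.9 TPM of brm. In ORC4 replicates 1 to 4 its level was 47.9, 71.5, 39.8 and 50.6 TPM, and in the ORE50/ORC4 ones 14.8, 23.0, 13.5 and 16.8 TPM. The early libraries stood at 142, 133 and 143 TPM. ORE50/ORC4 thus lay below every other library, early wild type above every other, and ORC4 overlapped late wild type. On the log2 scale brm fell by 1.23 in ORE50/ORC4 against late wild type (SE 0.19, edgeR adjusted p = 0.000176). The value was -1.53 against late wild-type replicates 5 and 6, the libraries of like depth, and -1.001 against replicates 1, 2 and 3. Between the stages brm fell by 1.73 (SE 0.16, edgeR adjusted p = 3.46e-06). For ORC4 the difference was 0.26 (SE 0.18, edgeR adjusted p = 0.297), which did not pass the test. The early patterning markers were, like brm, highest at 2 to 4 h. They were lower in ORE50/ORC4 (7.41 to 12.6 TPM) than in late wild type (24.1 to 55.9 TPM) or ORC4 (37.0 to 75.7 TPM). The neuronal markers, lowest at 2 to 4 h, were also lower in ORE50/ORC4 (136 to 205 TPM) than in late wild type (243 to 273 TPM). Muscle markers overlapped between these groups (6669 to 7354 and 6644 to 7200 TPM), as did hemocyte markers (1179 to 1768 and 1719 to 1815 TPM). The part of embryo age in the brm values was not tested. These estimates share reads with the nested members.

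Adding the nested members back to brm gives a value that does not depend on how the reads were divided. Late wild type summed to 275 ± 36.7 CPM (SD, n = 5) and early wild type to 767 ± 18.1 CPM (SD, n = 3). ORC4 summed to 287 ± 70.1 CPM and ORE50/ORC4 to 111 ± 12.1 CPM (SD, n = 4 for each mutant). The ranges of late wild type (243 to 318 CPM) and ORC4 (225 to 388 CPM) overlapped, while ORE50/ORC4 (102 to 128 CPM) lay below both. Nested members took 9.50% to 21.1% of the sum in late wild type, 0% in ORC4 and early wild type, and 2.78% to 17.9% in ORE50/ORC4. CG17029 took a larger share in the deep wild-type libraries (14.1% to 21.1%) than in the shallow ones (9.50% and 11.8%). The sum contains CG17029, which was chosen on its values, so it has no test.

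Per length, CG17029 stood at 0.967 to 2.46 times the TPM of brm in late wild type, above brm in replicates 1, 2, 3 and 6 and below it in replicate 5. CG17027 stood at 0.227 to 1.73 times the TPM of brm in ORE50/ORC4. As counts scaled to the library total, CG17029 had 29.6 to 51.3 CPM in late wild type. The amount credited to brm was 225 to 388 CPM in ORC4, 84.5 to 124 CPM in ORE50/ORC4 and 746 to 778 CPM in early wild type. Late wild type, where CG17029 was credited with reads, also held 192 to 282 CPM of brm. In every library brm thus held more than the highest CG17029 value, so this comparison cannot tell why CG17029 was listed at 0. How many of those reads lay inside CG17029 cannot be told from values per gene.

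**Figure D3:**
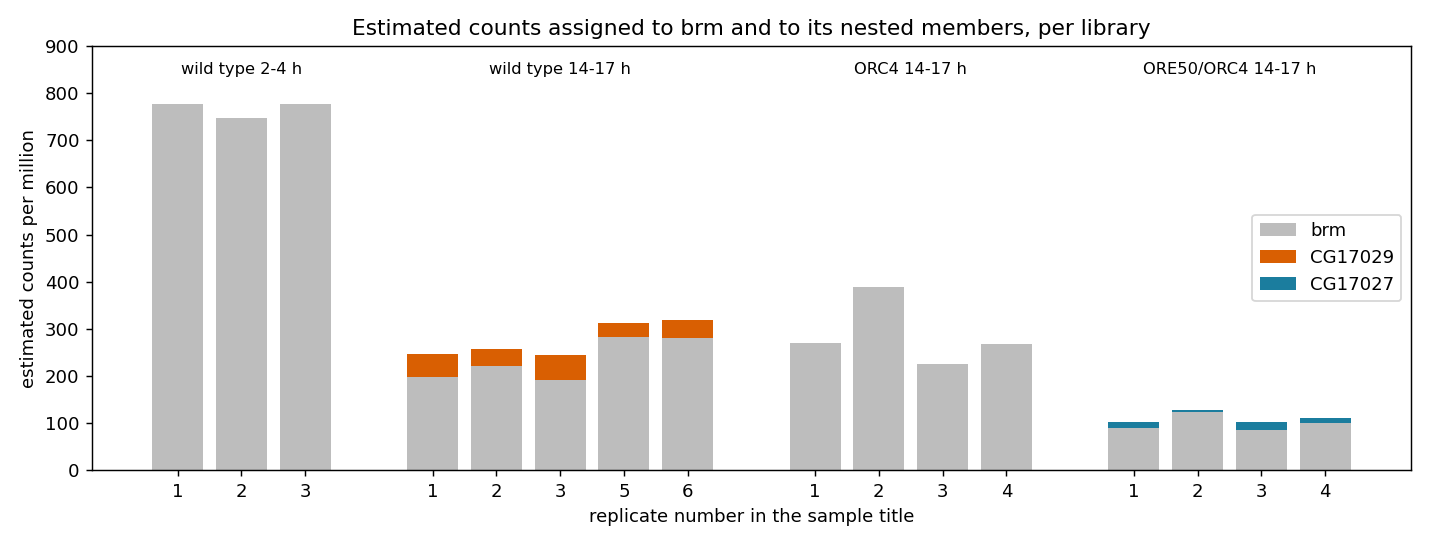
CPM (vertical axis) credited to brm, CG17029 and CG17027 in each of the 16 libraries, stacked and ordered by group and replicate number. CG17029 appears in the 5 late wild-type libraries and CG17027 in the 4 ORE50/ORC4 libraries, on top of a brm level that is highest at 2 to 4 h and lowest in ORE50/ORC4.

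Exact zeros of this kind were seen in few genes. Only 8 of the 17753 genes were at 0 in all mutant libraries with at least 10 estimated counts in each late wild-type library. Each of the 8 overlaps another gene, as do 47.6% of the genes matched to the annotation. Besides CG17029, and named after their values were seen, the 8 were CG32074, CG42656, CG6295, LysB, LysE, Muc96D and Pig1. Nothing is read from their overlap, because zeros throughout were themselves more frequent in nested genes (46.5%) than in genes overlapping none (2.35%). Genes without overlap also came close to the pattern of CG17029. Retinin averaged 0.0719 CPM for ORC4 and 0.0230 CPM for ORE50/ORC4, against 42.9 CPM for late wild type. Jon99Fi averaged 0.0895 and 0.0450 CPM, against 118 CPM, in the same order. CG17027 shared its pattern, 0 in all wild-type and ORC4 libraries and at least 10 counts in each ORE50/ORC4 library, with Hs2st alone, which encodes a heparan sulfate sulfotransferase and also overlaps another gene.

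The genes whose profile over the 16 libraries was most like that of CG17029 included digestive proteases. By Pearson's r of log2(CPM + 1), they were CG42656 (0.998), retinin (0.998), Jon25Bii (0.995), Jon25Bi (0.995) and Jon99Fi (0.994). The last 3 are Jonah serine proteases of the midgut, and they and retinin overlap no gene. These values describe libraries of 4 groups that share depth and genotype, and CG17029 was chosen for this profile. A midgut marker list (Jon25Bii, Jon99Fi, LManVI, Vha100-4 and Mal-A1) was highest in late wild type when summed. LManVI, Vha100-4 and Mal-A1 are not given singly. It summed to 301 to 1000.1 TPM in late wild type, 55.1 to 108 in ORC4, 46.6 to 63.7 in ORE50/ORC4 and 0.245 to 2.55 in early wild type. At least 10 counts were found in every library of the group for 5 of 5 of these markers in late wild type, 3 of 5 in each mutant and 0 of 5 early, and none was at 0 throughout a group. Jon25Bii and Jon99Fi are themselves among the genes most like CG17029, and the part of midgut RNA in its values was not tested. For CG17027 the 3 most like genes were CG33331 (0.998), Hs2st (0.981) and CG14043 (0.957), each of which overlaps 1 other gene.

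CG9391 is the member with the firmest values, since it overlaps no gene and its counts were whole in all libraries. Late wild-type replicates 1, 2, 3, 5 and 6 had 499, 557, 608, 158 and 138 counts, at 26.9, 30.03, 28.3, 23.4 and 20.8 TPM. ORC4 replicates 1 to 4 had 643, 608, 655 and 680 counts, at 34.3, 35.5, 35.97 and 40.1 TPM. For ORE50/ORC4 the counts were 295, 278, 197 and 257, at 34.8, 33.6, 30.05 and 34.4 TPM. All mutant libraries lay above all late wild-type libraries, although in TPM the lowest of ORE50/ORC4 (30.05) and the highest of late wild type (30.03) nearly met. On the CPM scale the gap was wider, 21.0 against 19.3. Against late wild type the fitted log2 difference was 0.43 for ORC4 (SE 0.09) and 0.44 for ORE50/ORC4 (SE 0.09), and it was 0.02 between the mutants (SE 0.10). Within late wild type the deep libraries (17.4 to 19.3 CPM) lay above the shallow ones (13.5 and 15.2 CPM).

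Between the stages CG9391 rose. This comparison shares late wild type with those used to choose members, but CG9391 joined by family and had over 10 counts in every library. Early wild-type replicates 1 to 3 had 136, 69 and 194 counts, at 6.97, 7.36 and 9.71 TPM, all below every late library. The level went from 8.01 ± 1.48 TPM early (SD, n = 3) to 25.9 ± 3.74 late (SD, n = 5), or by 1.69 on the log2 scale (SE 0.16, edgeR adjusted p = 3.70e-06). Over all genes tested, 48.1% were higher late than early by this call, so a rise is common. The 3 genes most like CG9391 were GstE6 (r = 0.992), a glutathione S-transferase, PheRS-m (r = 0.991), a mitochondrial phenylalanyl-tRNA synthetase, and CG13920 (r = 0.991).

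CG9389, the neighbour of CG9391, was near the limit of detection. It had 12, 13, 26, 4.83 and 4 estimated counts in late wild-type replicates 1, 2, 3, 5 and 6, at 0.441 to 0.885 TPM. ORC4 replicates 1 to 4 had 1.21, 1.21, 10.9 and 6.04 counts, at 0.0472 to 0.437 TPM. ORE50/ORC4 had 0, 0, 1 and 3 counts, at 0 to 0.294 TPM. The mutant libraries lay below late wild type, but the highest of ORC4 (0.390 CPM) and the lowest of late wild type (0.392 CPM) nearly met. The fitted log2 difference, given as a size only, was -1.62 for ORC4 and -2.45 for ORE50/ORC4. CG9389 passed the filter on low counts at this age only through late wild type, where it is high. Its direction is therefore not read as a result. The levels per length of CG9389 and CG9391 were more than an order of magnitude apart.

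Early wild type had 2, 4 and 4 counts of CG9389, at 0.0750, 0.313 and 0.147 TPM. All 5 late wild-type libraries lay above these, with a fitted log2 difference of 1.88, given as a size only. No test is given, because CG9389 passed the filter on low counts only through the late libraries. The overlapping asRNA:CR45162 held at most 1.17 estimated counts in any library, so few reads were in question. The most like genes were CG13295 (r = 0.839), Cyp12b2 (r = 0.835) and CG9759 (r = 0.833), from counts too sparse for more than a description.

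Counted together, 4 of the 6 members passed the filter on low counts at 14 to 17 h. CG17029 and CG9389 passed only through late wild type and CG17027 only through ORE50/ORC4, where they are high. Their places below are thus fixed by the filter and are not comparable with the shares of all genes. Against late wild type, 2 members lay wholly below and 1 wholly above in ORC4, where 14.4% and 13.4% of all genes tested did so. In ORE50/ORC4 the numbers were 2 below and 2 above, against 23.6% and 19.7%. Between the mutants CG17027 alone stood apart, higher in ORE50/ORC4, against 14.3% of genes. By adjusted p under 0.05, 17.2% of genes were lower and 15.5% higher in ORC4, 27.0% and 27.0% in ORE50/ORC4, and 17.4% and 19.9% in ORE50/ORC4 against ORC4. These contrasts were used to choose members, so nothing is read from the counts. With TPM and limma (pseudocount 1) the balance of calls was 3522 lower and 2164 higher in ORE50/ORC4, where edgeR gave 3087 and 3083. Against ORC4 it was 2673 and 846, where edgeR gave 1992 and 2271, and the median log2 difference of all genes went from 0.034 to -0.091. In the stage comparison 3 of 6 members passed the filter, CG17029 and CG9389 only through late wild type, where they are high, so their direction there is not read as a result. Of all genes, 48.1% were called higher and 41.8% lower late, and 47.5% lay wholly above and 41.3% wholly below.

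The rest of inositol phosphate metabolism was read from a list of 22 genes, all of which passed the filter. In ORC4, 5 fell and 1 rose (edgeR adjusted p under 0.05), 6 of 22 or 27.3%, against 32.7% of all genes tested. The median log2 fold change was -0.13 for the list and 0.0044 for all genes. Those that fell most were l(1)G0196, Inos and INPP5E, and the gene that rose was Ipp. Inos encodes the synthase that makes inositol phosphate from glucose 6-phosphate, the substrate of the monophosphatases. Its level fell from 13.98 ± 3.28 TPM (SD, n = 5) in late wild type to 9.81 ± 0.924 TPM (SD, n = 4) in ORC4, or by 0.57 on the log2 scale (SE 0.16, edgeR adjusted p = 0.0157). That call was lost against the deep wild-type libraries alone and with limma on TPM (adjusted p over all alternatives 0.00373 to 0.186). Ipp, inositol polyphosphate 1-phosphatase, which hands monophosphates to the same step, rose from 35.9 ± 1.65 to 51.0 ± 3.54 TPM, by 0.44 (SE 0.09, edgeR adjusted p = 0.00177). INPP5E, a phosphoinositide 5-phosphatase, fell by 0.37 on the log2 scale (SE 0.12, edgeR adjusted p = 0.0318), a call that held in 8 of 18 alternatives.

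In ORE50/ORC4, 9 of the 22 fell and 3 rose, 54.5% against 54.0% of all genes, with a median of -0.26 against 0.011. The gene l(1)G0196, the fly kinase that makes diphosphoinositol phosphates of the PPIP5K type, stood at 25.7 ± 0.613 TPM (SD, n = 5) in late wild type, at 17.3 ± 1.29 TPM in ORC4 and at 11.1 ± 1.07 TPM in ORE50/ORC4 (SD, n = 4 for each mutant). On the log2 scale it fell by 0.64 in ORC4 (SE 0.07) and by 1.13 in ORE50/ORC4 (SE 0.07, edgeR adjusted p = 2.34e-05 and 1.21e-07), and 2 other genes overlap it. Inos fell by 0.63 on the log2 scale (SE 0.16, edgeR adjusted p = 0.00583). Plc21C, a phospholipase C of the beta type, fell by 0.60 (SE 0.08, edgeR adjusted p = 4.96e-05) and overlaps 7 other genes. Among other named genes of the list, Mipp2 overlaps 3, Itpr and Ip6k 2 each, and 5PtaseI, IP3K1 and IP3K2 1 each. For all these genes the counts can depend on how reads were divided. Ipp rose by 0.58 (SE 0.09, edgeR adjusted p = 0.000129), Ipk1, the inositol pentakisphosphate 2-kinase, by 0.44 (SE 0.13, edgeR adjusted p = 0.00974) and the 5-phosphatase 5PtaseI by 0.26 (SE 0.06, edgeR adjusted p = 0.00452). With limma on TPM the calls of Ipk1 and 5PtaseI were lost. The inositol trisphosphate receptor gene Itpr differed by -0.15 for ORC4 and by -0.26 for ORE50/ORC4 on the log2 scale and was not called in either (edgeR adjusted p = 0.351 and 0.0775). The 2 mutants were set against the same 5 libraries.

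**Figure D4:**
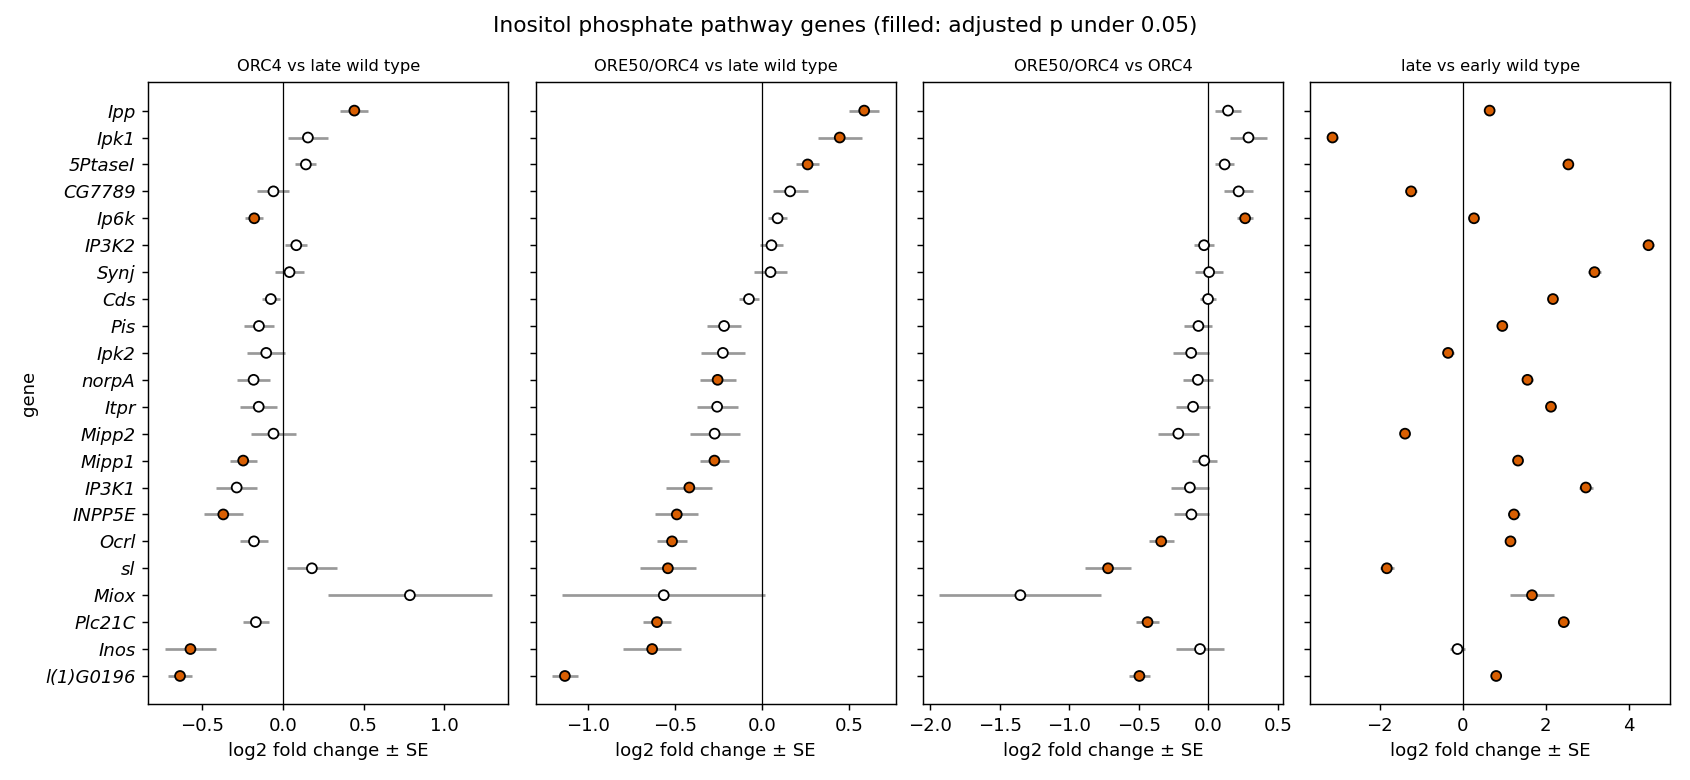
Log2 fold change with SE (horizontal axes) of the 22 pathway genes (vertical axis) in each comparison, filled where the adjusted p is under 0.05. l(1)G0196 is lowest in both mutants among called genes and Ipp is higher in both, while most of the list is higher late than early.

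Between the mutants, 4 of the 22 were lower and 1 higher in ORE50/ORC4, 22.7% against 37.3% of all genes tested. The lower ones named by size were sl, the phospholipase C of the gamma type (-0.72, SE 0.17), l(1)G0196 (-0.50, SE 0.08) and Plc21C (-0.44, SE 0.08). Ip6k, the inositol hexakisphosphate kinase, was higher (0.26, SE 0.06). The edgeR adjusted p values were 0.00493, 0.000397, 0.00147 and 0.00351. Ip6k was not called with limma on TPM. From 2 to 4 h to 14 to 17 h, 16 of the 22 rose and 5 fell in wild type, 95.5% against 89.9% of all genes, with a median of 1.20 against 0.18. Among those that fell, Ipk2 was still called in only 6 of 17 alternatives. IP3K2 and IP3K1, kinases of inositol trisphosphate, rose by 4.48 (SE 0.14) and 2.97 (SE 0.17), and Synj, the synaptic 5-phosphatase synaptojanin, by 3.18 (SE 0.16). The log2 value was -3.14 for Ipk1 (SE 0.14), -1.83 for sl (SE 0.16) and -1.39 for Mipp2, a multiple inositol polyphosphate phosphatase (SE 0.12), all of which fell. The edgeR adjusted p values of these 6 ran from 1.39e-09 to 2.08e-06. Itpr rose by 2.13 (SE 0.13, edgeR adjusted p = 1.02e-07) and Ipp by 0.65 (SE 0.10, edgeR adjusted p = 0.000118), while Inos did not pass the test (-0.12, SE 0.19, edgeR adjusted p = 0.545).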

How the data were processed

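Each of the 16 libraries came as 1 table deposited by the authors, with an estimated count and a TPM value per gene. Per the submitters' processing notes, kallisto and CASAVA 1.8.2 were used with build dm6; version of kallisto, index and strand setting are not given in the sources used here. After rounding to whole numbers, the estimated counts went into edgeR 4.0.16 under R 4.3.3 (quasi-likelihood, TMM scaling, filterByExpr with a minimum of 10 counts, Benjamini-Hochberg adjustment over all genes, called under 0.05). The 13 libraries at 14 to 17 h were fitted together and the 8 wild-type libraries in a second fit, without covariates. SEs were derived from the fold change and the F statistic. CPM is relative to the library total. Symbols and positions came from the Ensembl BDGP6 annotation (17625 genes matched), and older symbols from RefSeq's gene table. The marker nos was not analysed here.

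The members and lists were chosen with earlier results of these data known. Named are all members, brm, overlapping genes, the 3 most changed called pathway genes per direction with Inos, Ipp and Itpr, and the most like genes by correlation. Alternatives were RLE scaling, DESeq2 1.42.0, no filter, limma 3.58.1 on log2(TPM + 1) and log2(TPM + 0.1), leaving out each replicate, wild-type libraries of 1 depth, and the replicate number as a block. The edgeR fits of ORC4 and of the stages were also run on simulated counts. These had few changed genes, as many up as down, and the same spread for every gene. Many more genes were called in these data, so the simulation does not check the scaling under such broad change. Genome and protein sequences were not used here.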

Additional observations from a re-analysis of the deposited data

Results flagged for a closer look

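Of 17 sets of 4 or 5 libraries checked for a library far from the rest, 3 had one, where the limit used is set to mark about 1 in 20 sets of normally distributed values by chance. CG9389 had 0.885 TPM in late wild-type replicate 3, against 0.441 to 0.524 in the other late wild-type libraries. The antisense gene asRNA:CR45162 had 0.735 TPM in late wild-type replicate 5 and 0.501 TPM in ORE50/ORC4 replicate 1, with 0 in the other libraries of each group; both rest on about 1 estimated count among zeros, for which that rate does not hold.

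Of brm and the pathway genes named above, these changed differently in the mutants by the direct comparison of ORE50/ORC4 with ORC4 (edgeR). The pathway gene Ocrl, not named above, was also called there (-0.34, adjusted p = 0.0113). Brm differed by a log2 value of -1.50 (adjusted p = 0.000188) and l(1)G0196 by -0.50 (adjusted p = 0.000397). Plc21C differed by -0.44 (adjusted p = 0.00147), sl by -0.72 (adjusted p = 0.00493) and Ip6k by 0.26 (adjusted p = 0.00351). Depth and genotype cannot be told apart in this comparison.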

How the results depend on the processing

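The stage difference of CG9391, and those of brm in ORE50/ORC4 and between the stages, kept direction and call under all alternatives; CG9389 did not pass the filter against early wild type with late replicates 5 and 6 alone. For brm in ORC4, wild-type replicates 5 and 6 alone reversed the sign (-0.039, adjusted p = 0.914), and the replicate number as a block made it a call (0.50, adjusted p = 0.0399), where the same libraries without the block gave 0.55 (adjusted p = 0.0942). Same-numbered libraries correlated between -0.097 and 0.329. Differently numbered libraries were not compared, so these values cannot settle whether the numbers mark pairs, and the main fits are unpaired. Of the genes named, Inos and INPP5E in ORC4, Inos, Ipk1 and 5PtaseI in ORE50/ORC4, and Ip6k between the mutants were not called under the block. Without ORC4 replicate 2 the brm value in ORC4 was 0.054. Pathway calls in ORC4 went from 6 to 2 with limma on TPM (either pseudocount), to 3 with wild-type replicates 1, 2 and 3 alone or shared numbers without the block, and to 3 to 8 when a library was left out (3 without wild-type replicate 5 or ORC4 replicate 4). In ORE50/ORC4 they went from 12 to 5 over shared numbers, with or without the block. All genes called went from 3734 to 2378 in ORC4 with wild-type replicates 5 and 6 alone, and from 6170 to 4110 in ORE50/ORC4 over shared numbers without the block. Between the mutants the balance of lower and higher calls turned from 1992 and 2271 to 2132 and 1936 with RLE scaling and to 1812 and 1225 with the block. The early sum at brm was 794 CPM with TMM scaling. The fit over shared numbers without the block was chosen after seeing the data. CG17026, CG17027 and CG17028 gave no stage value, since both wild-type groups were at 0. The causes were not tested. The 4 to 26 counts of CG9389 and the shared reads at brm limit what these libraries show.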
